A study of Mus musculus with 12 samples.

Results

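Mouse genes of mitosis and the spindle checkpoint, 45 in all, were followed in microglia, the resident macrophages of the brain. The members were listed by name with earlier results of these data known, and each was read from the array probes whose accession maps to it. Where a design held several probes of a gene, the brightest of those kept, on average over its arrays, stood for the gene. Each member had a probe on both designs, with 61 probes in all on the first and 70 on the second. A filter on dim probes was passed by 42 members on the slide of 4 arrays, where Ttk, Cenpf and Sgo2a were left out, and by 45 on the slide of 8 arrays. These stand among 27935 and 30525 genes or unnamed accessions that passed it on those slides.

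Male mice aged 8 weeks gave the cells, and magnetic beads against the fractalkine receptor CX3CR1 were used to enrich them. Genotypes were wild type, overexpression of ZEB1, a zinc-finger transcription factor, and knock-down of ZEB1. Each was sampled before and after tMCAO, which models stroke by closing a brain artery for a time and reopening it. That gave 6 groups of 2 arrays each. The promoter, Cre line or vector behind the overexpression and the knock-down, and the interval between tMCAO and sampling, are not given in the sources used here. Nothing states that the 2 samples of a group came from separate animals, so the p-values reflect no more than the differences among these samples, possibly technical ones. Wild type and overexpression after tMCAO were hybridised on the 4-array slide and the other 4 groups on the 8-array slide, so only groups on the same slide were tested against each other.

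Entry into mitosis is driven by the kinase CDK1 bound to cyclins A and B. The spindle checkpoint then holds the anaphase-promoting complex, a ubiquitin ligase, in check until each chromosome is attached to spindle microtubules at its kinetochore. Kinesins build the spindle, the chromosomal passenger complex corrects faulty attachments, and a set of midzone proteins divides the cell. Many of these genes are known to be transcribed together late in the cell cycle through a promoter element called the cell cycle genes homology region (CHR) and through CCAAT boxes. Microglia divide rarely in the healthy adult brain and proliferate after injury.

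The promoters are shown first, since the members are compared below as a set. RefSeq promoter windows of mouse build GRCm38.p6, which run from 250 bases before to 50 bases after the annotated start, were given for 38 of the 45 members. The windows were searched on both strands for the CHR, spelled TTTGAA or otherwise TTCGAA, and for the CCAAT box, spelled CCAAT. The core of an E2F site was taken as TTGGCGC, as its variant TTCCCGC or as the further variant TTCGCGC, and matches of different motifs could overlap. A CHR was found in 28 members (73.7%), against 21.7% of the 27025 genes of the table. CCAAT boxes stood in 29 members (76.3%) against 41.1%, and at least 2 of them in 19 members (50%) against 13.3%. Both a CHR and a CCAAT box were found in 25 members (65.8%) against 8.61%, and an E2F core in 7 (18.4%) against 9.20%. The CHR of the members lay near the start, with 52.5% of the 40 matches downstream of it, against 11.4% of 7260 matches over all genes. Matches were counted over the 41 windows of the 38 members, so those in the overlapping windows of Ect2 and Prc1 count more than once. The letters alone make a match here, which describes the window and shows no binding of any factor.

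**Figure D1:**
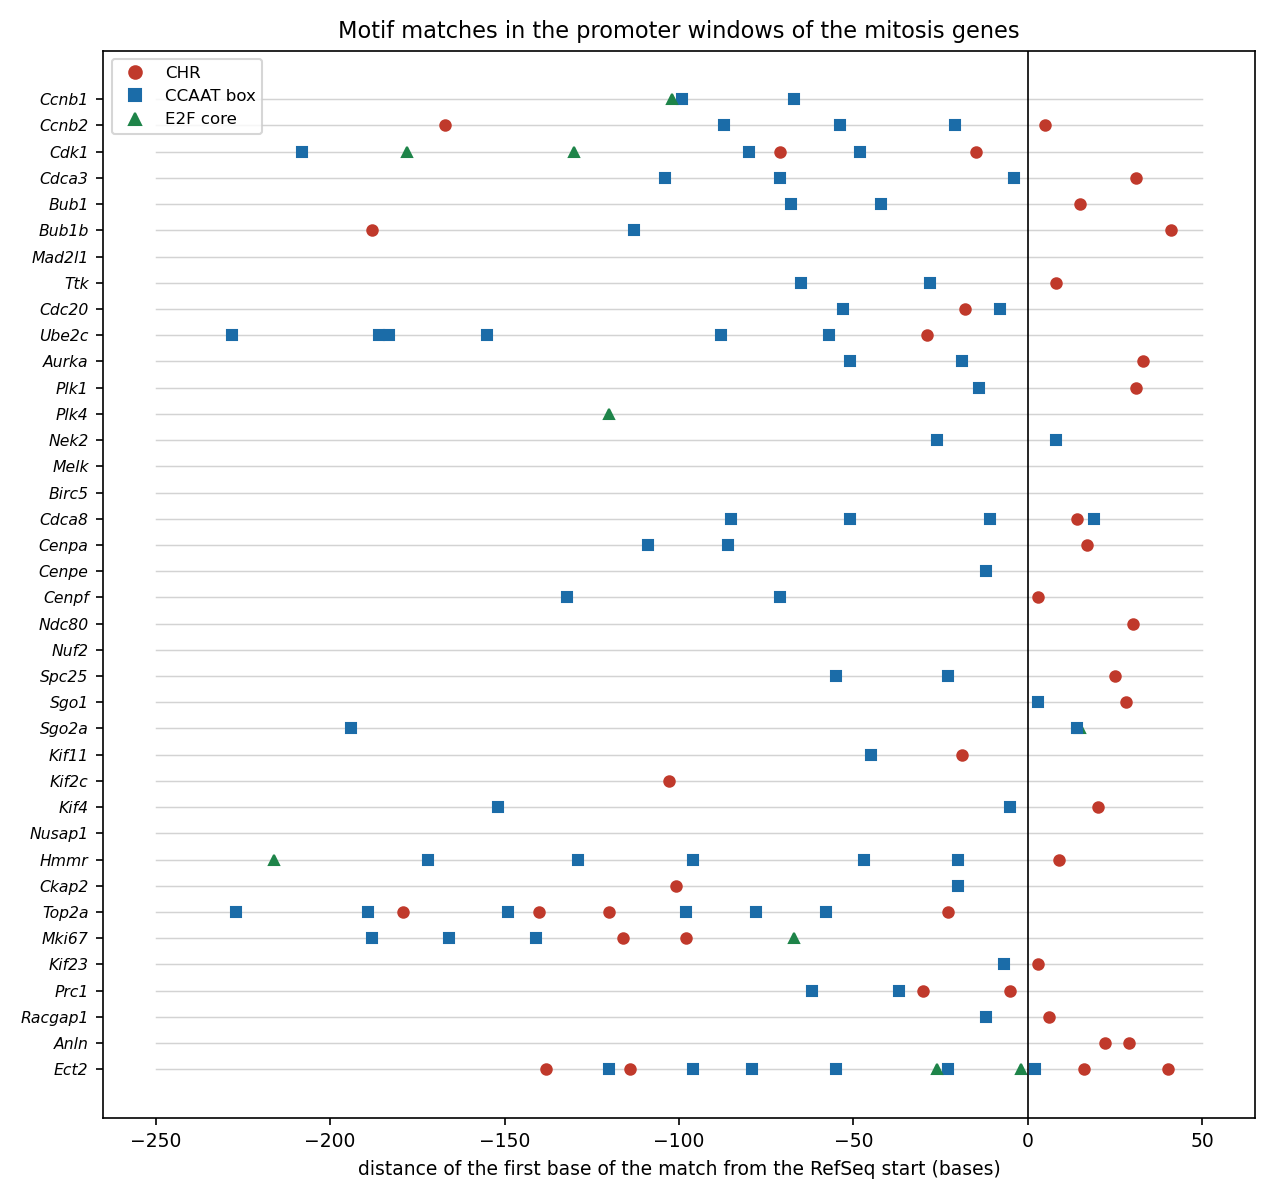
Positions of motif matches in the promoter windows of the 38 members that have one. The x axis is the distance of the first base of a match from the RefSeq start in bases, each row is a gene, circles are CHR, squares CCAAT boxes and triangles E2F cores. The CHR matches gather near the start. The CCAAT boxes lie mostly upstream of it, with 7.04% of 71 downstream, against 10.2% of 17707 over all genes.

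Short stretches around the CHR nearest the start are printed for the 9 members with the largest tested differences below among those with a CHR on the gene's strand, so that their shared letters can be seen. Each has 24 bases on the gene's strand, 5′ to 3′, with the CHR in capitals.
Bub1, chr2:127831831-127831854, minus strand: cgcggggaaTTCGAAtcgccggcg
Cdk1, chr10:69352913-69352936, minus strand: cgcggcgagTTTGAAactgctggc
Cdca3, chr6:124830197-124830220, plus strand: ggagggaagTTTGAAactccgggc
Ccnb2, chr9:70421536-70421559, minus strand: ggcgcggtaTTTGAAtcgcggacc
Ckap2, chr8:22185906-22185929, minus strand: ttgttcgatTTTGAAatttctcgc
Ect2, chr3:27153825-27153848, minus strand: ctggattttTTTGAAtcggaggcg
Prc1, chr7:80294437-80294460, plus strand: ctggctcggTTTGAAttccgcggg
Spc25, chr2:69206175-69206198, minus strand: ggtggagagTTTGAAattgaaaga
Plk1, chr7:122159456-122159479, plus strand: agcgccgcgTTTGAAttcggggag
The CHR begins at base -15 from the start in Cdk1, at base -5 in Prc1 and at base -101 in Ckap2, so upstream of it. In the other 6 it begins downstream, at base 15 in Bub1, 31 in Cdca3, 5 in Ccnb2, 16 in Ect2, 25 in Spc25 and 31 in Plk1. Ect2 and Prc1 also have another annotated start, and the start nearest the CHR was used.

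The 150 bases just upstream of the start are printed for 3 members and for Birc5, whose whole window held none of the motifs. The stretch of Cdk1 holds CHR, CCAAT and E2F matches, and those of Bub1 and Spc25 hold CCAAT boxes only. CHR, CCAAT and E2F letters are in capitals, and a CCAAT box on the opposite strand reads ATTGG.
Cdk1, chr10:69352913-69353062, minus strand: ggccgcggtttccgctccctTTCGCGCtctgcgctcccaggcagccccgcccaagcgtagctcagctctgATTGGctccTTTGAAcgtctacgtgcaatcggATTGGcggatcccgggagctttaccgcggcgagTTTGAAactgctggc
Bub1, chr2:127831860-127832009, minus strand: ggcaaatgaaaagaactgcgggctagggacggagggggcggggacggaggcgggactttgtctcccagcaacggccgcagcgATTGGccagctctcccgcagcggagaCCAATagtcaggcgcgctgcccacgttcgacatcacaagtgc
Spc25, chr2:69206214-69206363, minus strand: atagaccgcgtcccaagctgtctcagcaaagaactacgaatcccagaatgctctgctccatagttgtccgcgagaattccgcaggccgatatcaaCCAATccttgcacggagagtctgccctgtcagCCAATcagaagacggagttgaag
Birc5, chr11:117849087-117849236, plus strand: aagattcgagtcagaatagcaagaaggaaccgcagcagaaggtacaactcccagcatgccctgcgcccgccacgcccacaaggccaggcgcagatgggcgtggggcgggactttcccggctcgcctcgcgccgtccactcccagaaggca
In Cdk1 the CCAAT boxes of this stretch begin at bases -80 and -48, with a further CHR at -71. The pairs lie at -68 and -42 in Bub1 and at -55 and -23 in Spc25.

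Levels are log2 signal minus the 75th percentile of the array, so 0 is the brightness of a probe at that percentile. Every array held 59305 spots that were not controls, of which 60.4% to 73.9% were well above background. Zeb1, the manipulated gene, read -0.57 and -0.59 before tMCAO in wild type, -0.28 and -0.36 under overexpression and -0.11 and -0.79 under knock-down. It read -0.66 and -0.67 under knock-down after tMCAO, and on the 4-array slide 0.12 and 0.41 in wild type and -0.08 and 0.56 under overexpression. The probe was therefore no lower in both knock-down arrays than in wild type (limma, log2 difference 0.13 ± 0.27 SE, adjusted p = 0.954), and groups are called by their labels throughout. The scanner software marked 1.03% to 3.28% of spots as non-uniform or outlying of the wild type and knock-down arrays before tMCAO. On the remaining 4 arrays of that slide the share was 18.2% to 23.7%. Marked spots, among them Zeb1's in some arrays, were left out of the tests. All 12 microglia markers were well above background in every group, with a summed level of 26.8 to 51.1 times the 75th percentile on the 8-array slide and 122 to 135 on the other.

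Across the 8-array slide the median of the 45 members stood low in all 6 arrays before tMCAO and higher in both knock-down arrays after it. The median member level was -3.89 and -4.22 in wild type before tMCAO, -4.40 and -4.44 in the arrays labelled overexpression, and -4.30 and -4.64 in those labelled knock-down. After tMCAO it was -0.38 and -1.40 in the knock-down arrays. In such bulk samples, a change in the number of dividing cells and one in the RNA per cell cannot be told apart. With all spots counted, 42 of the 45 members were higher in both knock-down arrays after tMCAO than in any of the 6 earlier arrays, against 14.7% of all 30525 genes. The exceptions were Incenp, the scaffold of the chromosomal passenger complex, Hmmr, a spindle and hyaluronan-binding protein, and Anln, the actin-binding anillin of the cleavage furrow. Not every member was low before tMCAO. Over the 6 earlier arrays Incenp, Anln and Mad2l1 had medians of 0.74, 0.60 and 0.02. On the 4-array slide the medians were -1.16 and -1.33 in wild type after tMCAO and -1.0 and -1.13 under overexpression.

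**Figure D2:**
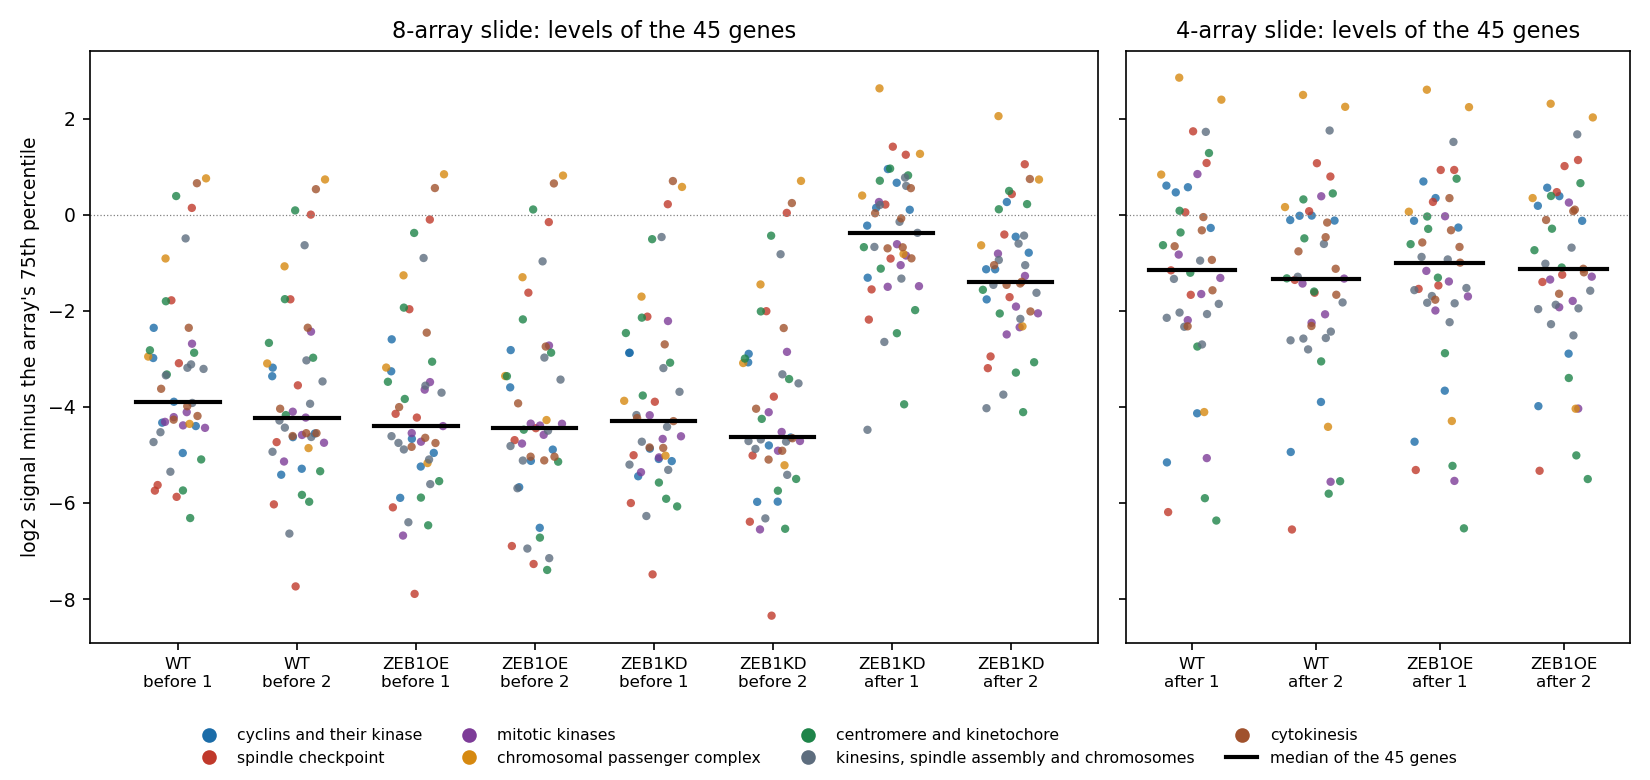
Level of each of the 45 genes (points, coloured by role) in each of the 12 arrays, as log2 signal minus the array's 75th percentile with marked spots included, and the median of the 45 genes (black bars). On the 8-array slide the medians lie between -4.64 and -3.89 in the 6 arrays before tMCAO and at -0.38 and -1.40 in the 2 knock-down arrays after it.

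In the arrays labelled knock-down, mitosis genes of each role rose after tMCAO. Of the 38 members that could be tested, 34 rose and none fell (limma, adjusted p under 0.05 over 24646 genes), where 11.1% of all genes tested rose and 7.03% fell. Over all genes these were 2728 higher and 1732 lower, a split that became 5792 and 1599 with another background correction (normexp) and 2053 and 2554 with quantile normalization. The other 4, Nuf2, Kif2c, Kif4 and Hmmr, had log2 differences of 0.97, 0.70, 1.09 and 0.50 that did not pass. The median log2 difference of the 38 was 3.16, or 8.94-fold, against 0.04 for all genes tested, and the range ran from 0.50 to a measured 7.0 in Bub1, which was not well above background before tMCAO. It exceeded 2 in 30 of them. Bub1 and Kif11, both among the 34, passed the filter on dim probes only through the knock-down arrays after tMCAO. Their place among the genes that rose is therefore not independent of that filter. In all 27 members with 4 unmarked spots both arrays after tMCAO were above both before it, against 35.9% of genes. The remaining 7 members, Mad2l1, Plk4, Melk, Incenp, Top2a, Mki67 and Anln, had both spots after tMCAO marked and were not tested. With marked spots counted, their differences were 1.02, 1.47, 2.90, 0.36, 5.14, 4.74 and 0.18.

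**Figure D3:**
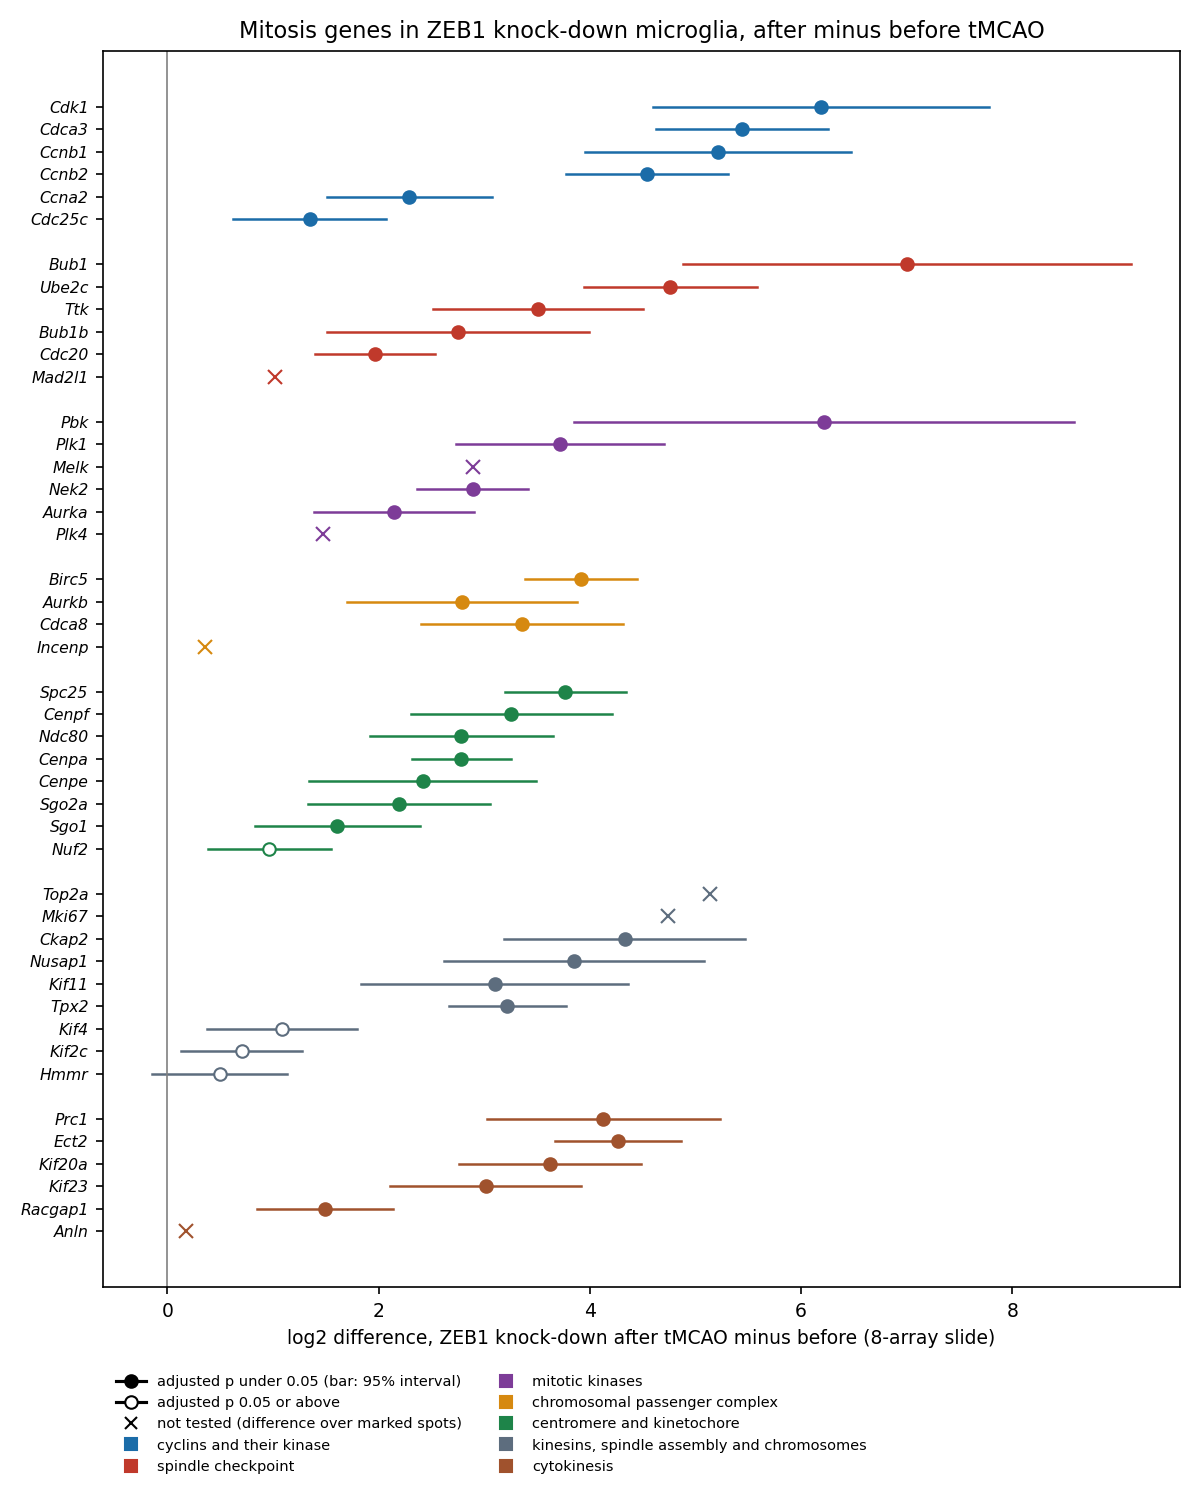
Log2 difference of each gene between the arrays labelled ZEB1 knock-down after and before tMCAO, by role, with its 95% interval from limma. Filled points passed an adjusted p of 0.05, open points did not, and crosses are the 7 genes without a test, given over marked spots. All 45 values lie above 0, from 0.18 in Anln to a measured 7.0 in Bub1, whose 2 spots before tMCAO were not well above background.

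The cyclins and the kinase they activate rose in full, 6 of 6 with a median log2 difference of 4.88. Cdk1, the kinase that drives entry into mitosis, lay at -5.08 and -5.97 before tMCAO and at 0.66 after it, with a second, marked spot at -0.46. Its log2 difference was 6.19 ± 0.62 (SE), or 73.1-fold (limma, adjusted p = 0.00723, 1 array after tMCAO). Both values after tMCAO were above all of the earlier arrays, in which wild type read -4.96 and -5.29. Cdca3, which is needed for timely entry into mitosis, rose from -4.87 and -4.80 to 0.95 and 0.26, by 5.44 ± 0.34 or 43.5-fold (adjusted p = 0.00220). Ccnb1, cyclin B1, rose from -5.44 and -5.98 to 0.14 and -1.14, by 5.21 ± 0.52 or 37.1-fold (adjusted p = 0.00491). For neither gene did the groups overlap. Ccnb2 (cyclin B2) rose by 4.54, Ccna2 (cyclin A2) by 2.29 and Cdc25c, the phosphatase that activates CDK1, by 1.35, the smallest of the 34.

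All 5 of the spindle checkpoint members that were tested rose, with a median of 3.51. Bub1, a checkpoint kinase at the kinetochore, lay at -7.49 and -8.35 before tMCAO, where neither spot was well above background, and at -0.91 after it, with a marked spot at -1.72. Its unmarked spot after tMCAO lay 53.9-fold above the mean of the lowest levels at which probes of the earlier knock-down arrays were detected. That fold is not a lower bound, since the marked spot was lower. On the measured values the log2 difference was 7.0 ± 0.83 (SE; limma, adjusted p = 0.00996, 1 array after tMCAO). Wild type before tMCAO read -5.87 and -7.74, so the gene was near or under background in most earlier arrays. Ube2c, the ubiquitin-conjugating enzyme of the anaphase-promoting complex, rose from -3.89 and -3.79 to 1.42 and 0.43, by 4.76 ± 0.34 or 27.1-fold (adjusted p = 0.00282). Ttk, the checkpoint kinase MPS1, rose from -6.0 and -6.39, the second not well above background, to -2.18 and -3.19, by 3.51 ± 0.41 (adjusted p = 0.00675). Both genes had every value after tMCAO above every value before it. Bub1b rose by 2.76 and Cdc20, the activator that the checkpoint holds back, by 1.96. Mad2l1, which binds CDC20, read 0.22 and 0.04 before and 1.25 and 1.05 after tMCAO, both of the latter marked.

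The mitotic kinases rose in all 4 tested members, with a median of 3.31. Pbk, a kinase active in mitosis, lay at -5.36 and -6.55 before tMCAO, the second not well above background, and at 0.26 after it, with a marked spot at -0.81. The measured log2 difference was 6.22 ± 0.93 (SE; limma, adjusted p = 0.0166, 1 array after tMCAO), with an interval of 3.85 to 8.58, and its size rests in part on that undetected spot. Plk1, polo-like kinase 1, which acts from centrosome maturation to cytokinesis, rose from -5.05 and -4.91 to -0.61 and -1.91, by 3.72 ± 0.40 or 13.2-fold (adjusted p = 0.00593). Nek2, a kinase of centrosome separation, rose from -4.61 and -4.71 to -1.49 and -2.05, by 2.89 ± 0.22 or 7.42-fold (adjusted p = 0.00315). In these 2 genes the values after and before tMCAO lay far apart. Aurka, the Aurora A kinase of the spindle poles, rose by 2.15. Plk4, which starts centriole duplication, and Melk had marked spots only.

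Birc5, Cdca8 and Aurkb, the tested members of the chromosomal passenger complex, all rose, with a median of 3.36. Birc5, the survivin subunit, lay at -1.71 and -1.45 before tMCAO and at 2.63 and 2.05 after it, a rise of 3.92 ± 0.22 or 15.1-fold and the smallest adjusted p of the members (limma, 0.00210). The earlier wild type arrays read -0.91 and -1.07 and the overexpression arrays -1.26 and -1.30, so the knock-down arrays before tMCAO were the lowest of the slide for this probe. Cdca8, the borealin subunit, rose from -3.87 and -3.09 to 0.40 and -0.64, by 3.36 ± 0.39 (adjusted p = 0.00675). Aurkb, the Aurora B kinase of the complex, lay at -5.02 and -5.22 before and at -2.32 after tMCAO. Its other spot after tMCAO, at -0.82, was marked, so that its rise of 2.79 ± 0.43 (adjusted p = 0.0174) rests on the lower array and became 3.54 over both. Incenp differed from its 3 partners, with 0.58 and 0.70 before and 1.27 and 0.73, both marked, after tMCAO.

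Of the centromere and kinetochore members 7 of 8 rose, with a median of 2.60. Spc25, a subunit of the NDC80 complex that grips microtubules, rose from -3.08 and -3.42 to 0.82 and 0.22, by 3.77 ± 0.23 or 13.6-fold (limma, adjusted p = 0.00223). Cenpf, a large protein of the outer kinetochore, rose from -6.07 and -5.50 to -1.99 and -3.07, by 3.26 ± 0.39 (adjusted p = 0.00709). For both genes the lower value after tMCAO exceeded each of the earlier 6. Cenpa, the histone H3 variant that marks the centromere, lay at -2.14 and -2.01 before tMCAO and at 0.71 after it, with a marked spot at 0.11, a rise of 2.79 ± 0.18 (adjusted p = 0.00400, 1 array after tMCAO). Ndc80, the subunit that names that complex, rose by 2.78, and its partner Nuf2 had 0.97 ± 0.21 (adjusted p = 0.0508, 1 array after tMCAO). Cenpe, a kinetochore motor, rose by 2.42, and the shugoshins Sgo1 and Sgo2a, which protect cohesin at the centromere, by 1.61 and 2.20, the latter with 1 of 2 arrays before tMCAO well above background.

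Among kinesins, spindle assembly factors and chromosome proteins 4 of 7 rose, with a median of 3.10. Ckap2, a microtubule-associated protein of the spindle, rose from -4.73 and -4.68 to 0.20 and -0.94, by 4.33 ± 0.47 or 20.1-fold (limma, adjusted p = 0.00591). Nusap1, which bundles spindle microtubules, lay at -4.17 and -4.87 before tMCAO and at -0.67 after it, with a marked spot at -1.46, a rise of 3.85 ± 0.48 (adjusted p = 0.0111, 1 array after tMCAO). Tpx2, the activator of Aurora A on the spindle, lay at -3.69 and -3.51 and then at -0.38, with a marked spot at -1.63, a rise of 3.22 ± 0.22 (adjusted p = 0.00401, 1 array) that became 2.60 over both spots. Each of the 3 was above its earlier arrays in both spots. Kif11, the kinesin that pushes spindle poles apart, rose by 3.10, with 1 of 2 arrays before tMCAO well above background. Top2a, the topoisomerase that untangles sister chromatids, read -5.31 and -5.41 before and 0.60 and -1.05 after tMCAO, and Mki67, which encodes the proliferation marker Ki-67, read -4.42 and -4.72 and then 0.77 and -0.43. All 4 of those later spots were marked, so neither gene has a test.

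The cytokinesis members rose in 5 of 5 tested, with a median of 3.63. Ect2, the exchange factor that activates RhoA at the cell equator, lay at -4.84 and -5.10 before tMCAO and at -0.70 after it, with a marked spot at -1.46, a rise of 4.27 ± 0.23 or 19.3-fold (limma, adjusted p = 0.00282, 1 array after tMCAO). Prc1, which cross-links the microtubules of the midzone, rose from -4.85 and -4.91 to -0.08 and -1.43, by 4.13 ± 0.45 or 17.5-fold (adjusted p = 0.00598). Kif20a, a kinesin that brings the passenger complex to the midzone, rose from -4.23 and -4.04 to 0.03 and -1.05, by 3.63 ± 0.35 (adjusted p = 0.00475). The groups were apart in all 3 genes. Kif23 and Racgap1, the partners of the centralspindlin complex, rose by 3.01 and 1.49. Anln read 0.70 and 0.24 before and 0.55 and 0.74, both marked, after tMCAO.

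The 2 knock-down arrays after tMCAO were not alike in these genes. Replicate 1 was above replicate 2 in 43 of 45 members, by a median of 0.89 and up to 1.65 (Top2a), where 58.4% of all probes were above and the median was 0.11. The exceptions were Kif2c and Anln. Before tMCAO the 2 knock-down arrays differed by a median size of 0.20 in the members. Without replicate 1 after tMCAO the median log2 difference was 2.58 and 23 of 30 members rose, and without replicate 2 it was 3.80 and 33 of 35 rose. When 1 array after tMCAO was left out, Plk1 ran from 3.07 to 4.37, Prc1 from 3.45 to 4.81, Ccnb1 from 4.57 to 5.85 and Bub1b from 2.06 to 3.45, each a move of over 1.5-fold. Pbk moved as much, from 5.62 to 6.81, when 1 array before tMCAO was left out. Leaving out knock-down replicate 2 before tMCAO left 19 of 38 members called, with a median of 3.19, and leaving out replicate 1 left 24, with 3.05. Aurka, Aurkb, Bub1b, Ccna2, Cdc25c, Cenpe, Kif11, Pbk, Racgap1 and Sgo1 lost their call in both cases, and Bub1, Kif23, Ndc80, Nusap1 and Sgo2a in the former only. With the normexp background in place of the scanner's, the median was 2.48 and all 34 stayed called, but 12 members moved by over 1.5-fold: Aurkb, Bub1, Ccnb1, Cdca3, Cdk1, Cenpf, Kif11, Ndc80, Nek2, Pbk, Sgo2a and Ttk. No difference fell to 0 or below in any of these fits, and 19 members were called in every fit in which they had a test.

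Position on the slide moved with this comparison. Both knock-down arrays after tMCAO lay in columns 1 and 2 of row 1, and those before tMCAO in columns 3 and 4 of row 2. The overexpression arrays before tMCAO shared columns 1 and 2, with 18.2% and 23.7% of spots marked, and had member medians of -4.40 and -4.44. The wild type arrays before tMCAO shared row 1 and had -3.89 and -4.22. Position differed in the other comparisons too. Wild type lay in row 1 and overexpression in row 2, both before tMCAO and after it. Before tMCAO the wild type arrays lay in columns 3 and 4, like those of the knock-down in row 2. The part of slide position in the rise or in the other differences was not tested.

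Probes of the same gene did not always give the same size. Over the 70 member probes of the slide, 68 were higher after tMCAO with all spots counted, and the other 2 were second probes of Anln (-0.21) and Incenp (-0.12). For several genes the brightest probe had the smallest measured difference, although most of the dimmer probes were near background before tMCAO. Hmmr had 0.27 with its brightest probe and 1.79 and 4.01 with 2 others, Kif2c had 0.70 and 4.31, Sgo1 had 1.61 and 4.38, and Ccna2 had 2.29 and 5.12. Before tMCAO the Hmmr probe with 4.01 and the Sgo1 probe with 4.38 were not well above background in either array, and the Hmmr probe with 1.79 and the Kif2c probe with 4.31 were so in only 1, so the sizes of these 4 are not exact. Both Ccna2 probes were well above background in all 4 arrays. Racgap1 went the other way, with 1.49 and then 0.29 for a probe not well above background after tMCAO. Averaged over its probes, Racgap1 no longer passed, at 0.89 (limma, adjusted p = 0.107). For Hmmr the average left out the brightest probe, which had a marked spot, and was 2.90 over the 2 dimmer ones (adjusted p = 0.00939).

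Other genes of cell division, from lists outside the 45, rose in part in the same comparison, in which 11.1% of all genes tested rose. Other kinesins and spindle assembly genes rose in 10 of 18 tested, with a median of 1.0, led by Kif18b (4.56), Aspm (3.73) and Kif15 (3.71). Kif18b was above background in no array before tMCAO and passed the filter on dim probes only through the knock-down arrays after it. Its place among the 10 is therefore not independent of that filter. Aspm was above background in neither knock-down array before tMCAO, so the sizes of both are not exact. Other kinetochore and centromere genes rose in 15 of 28, with a median of 1.15, led by Ska1 (5.39), Knl1 (4.93) and Trip13 (2.82). Condensin, cohesin and separase genes rose in 4 of 16, with a median of 0.33, led by Cdca5 (4.53), which encodes the cohesin regulator sororin. Genes of the anaphase-promoting complex, a list of subunits that also holds Fzr1, Fbxo5 and Ube2s, rose in 2 of 12, near that share. These were Anapc15 by 0.89 and Anapc1 by 0.86, and the median was 0.20. These lists thus ranged from medians near that of all genes to above 1, all under that of the 45.

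Other regulators of entry into and exit from mitosis rose in 5 of 9, with a median of 1.70, led by Cdca2 (3.79), Cdkn3 (3.75) and Haspin (3.39). Cdca2 was above background in neither knock-down array before tMCAO, so its size is not exact. Other cytokinesis genes rose in 4 of 7, led by Iqgap3 (3.13). Transcription regulators of the DREAM complex and FoxM1, which act on CHR and E2F elements, rose in 7 of 15 with a median of 0.50. Foxm1 itself rose by 4.03, Mybl2 (B-Myb) by 3.30 and E2f8 by 3.11. DNA replication genes rose in 15 of 27 with a median of 1.12, led by Tk1 (5.95), Uhrf1 (4.40) and Mcm3 (3.0), and G1 cyclins, kinases and inhibitors in 6 of 12, led by Cdk2 (2.95). Growth factors and receptors of microglia, a list that also holds the transcription factors Spi1 and Irf8, rose in 4 of 6, led by Csf2rb (3.39), a cytokine receptor subunit. No gene of these 10 lists fell.

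Markers of several cell types moved in this comparison too, to be read against the same 11.1% of genes that rose and 7.03% that fell. Microglia markers rose in 4 of 8 tested, with a median of 1.29, and their summed level went from 29.4 and 30.8 times the 75th percentile to 43.3 and 51.1. Markers of monocytes and border macrophages rose in 6 of 8, with a median of 1.85, led by Chil3 (3.23), Ccr2 (3.22) and Pf4 (2.14). Their summed level over 10 genes, all detected in each group, went from 10.7 and 11.1 to 29.8 in both arrays. Endothelial and mural markers rose in 3 of 7 (summed level 14.3 and 14.9, then 20.5 and 20.7), and neutrophil markers in 2 of 6, with a median of -0.02 and Elane not above background after tMCAO. Astrocyte markers rose in 1 of 6 and neural progenitor markers in 1 of 6, while oligodendrocyte precursor markers rose in 0 of 5 and erythroid markers fell in 3 of 5. Lymphocyte markers rose in 1 and fell in 2 of 10, with Cd3e and Ms4a1 not above background after tMCAO. Neuron markers fell in 1 of 4, and Mog, the only mature oligodendrocyte marker tested, rose by 0.99. The part of these cells in the rise of the mitosis genes was not tested.

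**Figure D4:**
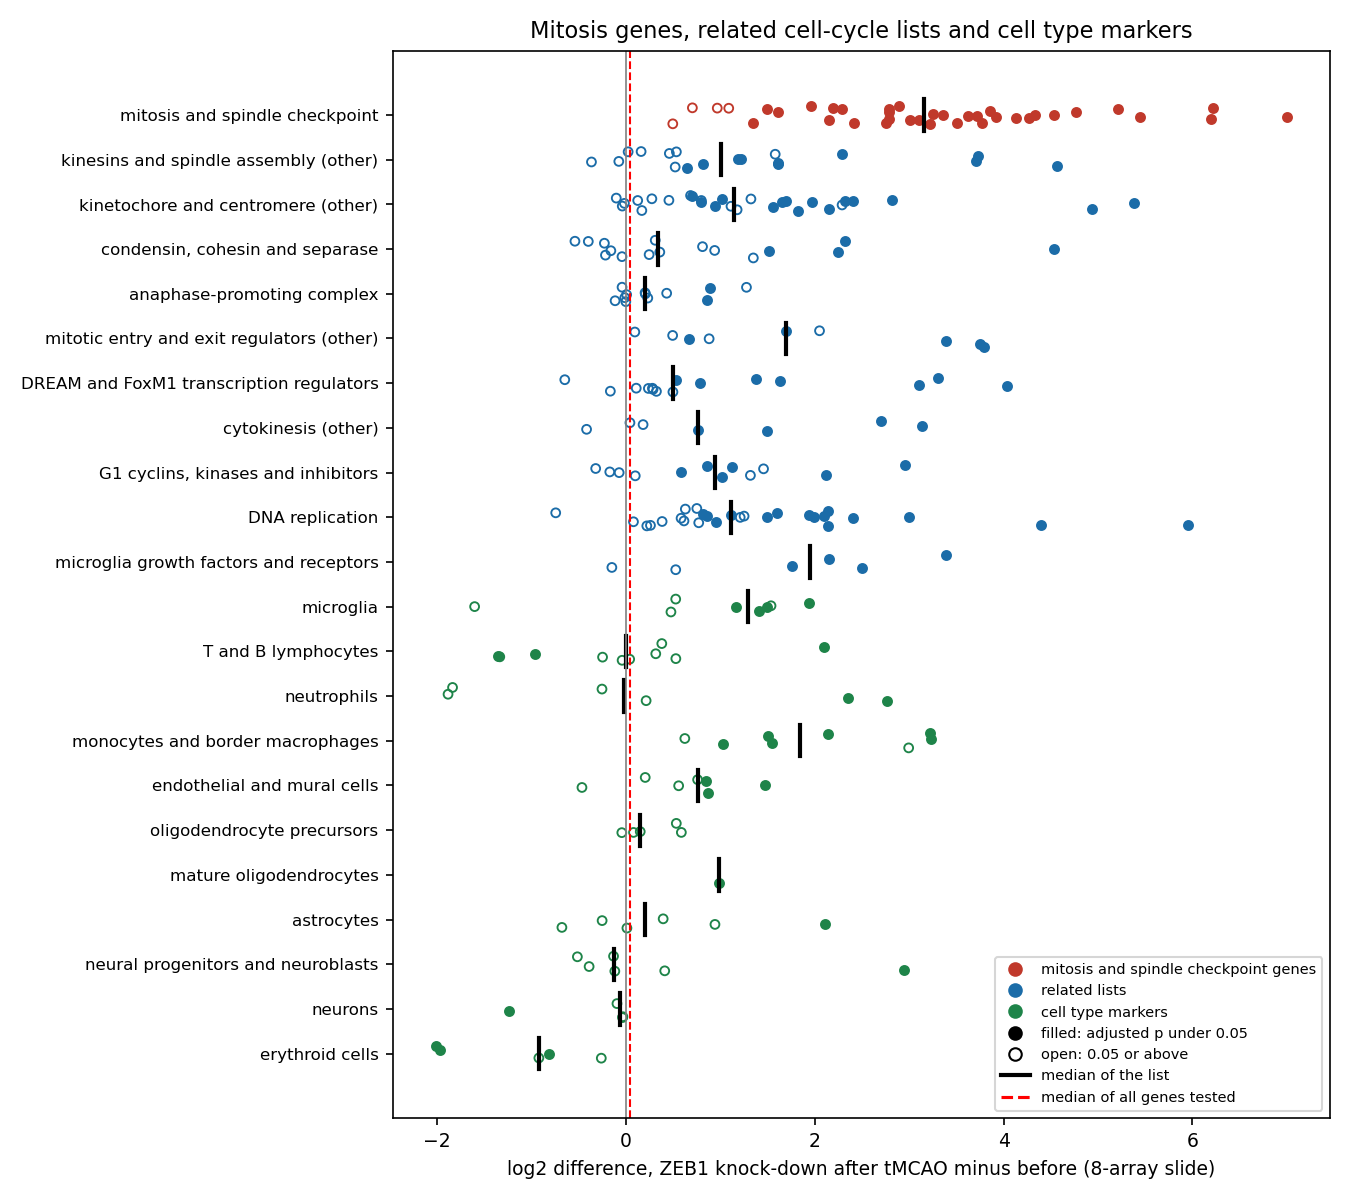
Log2 difference of each gene tested (points) in the arrays labelled knock-down after against before tMCAO, for the mitosis genes, 10 related lists and 11 lists of cell type markers, with the median of each list (black bar) and of all genes (dashed line). Filled points passed an adjusted p of 0.05. The median of the mitosis genes, 3.16, is the highest of the lists, followed by microglia growth factors and receptors at 1.96. The mitosis genes and the related lists were chosen with earlier results of these data known.

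After tMCAO, no mitosis gene passed the test between ZEB1 overexpression and wild type. On the 4-array slide 0 of 37 members tested passed (limma, adjusted p under 0.05), where 2.34% of 22072 genes did (1.59% higher and 0.748% lower), and 3 had an unadjusted p under 0.05, where 21.1% of all genes did. The median log2 difference was 0.26, against -0.11 for all genes, with 27 of 37 above 0 and a range from -0.50 to 0.78. With the normexp background in place of the scanner's, the median was 0.02 and 20 of 37 were above 0. Where all 4 spots were unmarked, 15 of 25 members were higher in both overexpression arrays without overlap, against 21.9% of genes, and 2 were lower, against 35.1%. Role medians ranged from -0.18 in the passenger complex to 0.44 in cytokinesis. Among 12 members with several probes, 4 had another kept probe of the opposite sign.

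The members with the smallest p there were Kif11, Ect2 and Prc1, named after their values were seen. Kif11 read -2.33 and -2.80 in wild type against -1.69 and -1.87 under overexpression, a log2 difference of 0.78 with a 95% interval of 0.15 to 1.42 (limma, adjusted p = 0.166). Ect2 read -2.32 in both wild type arrays and -1.77 and -1.65 under overexpression, a difference of 0.61 (adjusted p = 0.203). Prc1 read -0.33 and -0.47 against 0.35 and 0.07, a difference of 0.61 (adjusted p = 0.224). The arrays did not overlap in these genes, but none of the differences passed. Of the cell type markers tested on this slide only Elane, a neutrophil marker, passed, although several lists leaned one way. Over all genes, 12809 of 22072 were lower under overexpression. Endothelial and mural markers were lower under overexpression in 8 of 8 tested (median -1.06), with a summed level of 19.1 and 20.9 in wild type and 10.7 and 11.2 under overexpression. Lymphocyte markers were higher in 10 of 10 (median 0.83). Their summed level was 8.74 and 8.89 in wild type and 9.22 and 18.8 under overexpression, so the 2 overexpression arrays were far apart. Neutrophil markers were higher in 4 of 4 (median 0.80) and monocyte and border macrophage markers in 6 of 7. The summed level of the latter was 34.7 and 38.7 in wild type and 45.3 and 45.4 under overexpression. The part of these cells in the member values was not tested.

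Before tMCAO, 38 of the 43 members tested were lower in the arrays labelled overexpression than in wild type, without any passing the test. None of the 25162 genes tested passed either (limma, 0% called), and an unadjusted p under 0.05 was reached by 4 members, where 11.6% of all genes reached it. Of all genes, 12883 of 25162 were lower. Another kept probe went the other way in 4 of the 21 members with several probes. Fewer members were well above background under overexpression, 37 and 31 of 45, than in wild type, 45 and 43, so part of the lower values are of undetected spots. Microglia markers were lower in 7 of 8, and the summed erythroid level was 10.2 and 11.2 in wild type and 5.59 and 7.34 under overexpression, whose part was not tested. The median log2 difference of the members was -0.41, against -0.01 for all genes, and -0.11 with the normexp background. Among the 40 members with 4 unmarked spots, 21 were lower without overlap, against 26.1% of genes, and 2 were higher, against 22.6%. Top2a read -3.92 and -4.63 in wild type and -5.61 and -7.15, the last not well above background, under overexpression, a difference of -2.11 with a 95% interval of -3.49 to -0.72 (adjusted p = 0.298). Mki67 read -3.12 and -3.94 against -5.10 and -4.50, a difference of -1.27 (adjusted p = 0.329). Ube2c read -3.09 and -3.55 against -4.22 and -4.44, a difference of -1.01 (adjusted p = 0.368). These 3 had the smallest p of the members and were named after their values were seen.

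The arrays labelled knock-down before tMCAO were lower than wild type in 38 of 45 members, again with 0 members and 0% of 30293 genes past the threshold (limma). Both comparisons use the same 2 wild type arrays, of which replicate 1 was the higher in 35 of 45 members. Of all genes, 18639 of 30293 were lower as well. Members with several probes numbered 21, and in 8 of them another kept probe went the other way. Markers were lower in 10 of 12 genes for microglia, 8 of 10 for monocytes and border macrophages, 8 of 10 for endothelial and mural cells, 6 of 6 for mature oligodendrocytes and 7 of 7 for astrocytes, none past the threshold, and their part was not tested. The median of the members was -0.30, against -0.07 for all genes, and 4 members had an unadjusted p under 0.05, where 8.76% of genes did. No overlap on the lower side was seen in 24 of 45 members, against 30.6% of genes, and on the higher side in 0, against 13.6%. Nuf2 had the smallest p, at 0.39 and 0.09 in wild type and -0.51 and -0.44 under knock-down, a difference of -0.71 (adjusted p = 0.418). Mki67 followed with -1.04 (adjusted p = 0.498) and Birc5 with -0.59 (adjusted p = 0.513). Without wild type replicate 1 the median was -0.24 here and -0.25 in the comparison of overexpression, and without replicate 2 it was -0.48 and -0.44.

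Between overexpression and knock-down before tMCAO the mitosis genes had no common direction. The median log2 difference was -0.04, against 0.10 for all genes, with 20 of 43 members above 0 and a range from -1.02 (Top2a) to 0.59 (Bub1b). No member and 0% of 25167 genes passed (limma), and 1 member had an unadjusted p under 0.05, where 14.8% of genes did. That was Nuf2, with 0.58 (95% interval 0.00 to 1.16, adjusted p = 0.337, 1 overexpression array). Without overlap, 8 of 40 members were higher, against 33% of genes, and 9 lower, against 16.9%. In 10 of the 21 members with several probes another kept probe had the opposite sign.

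**Figure D5:**
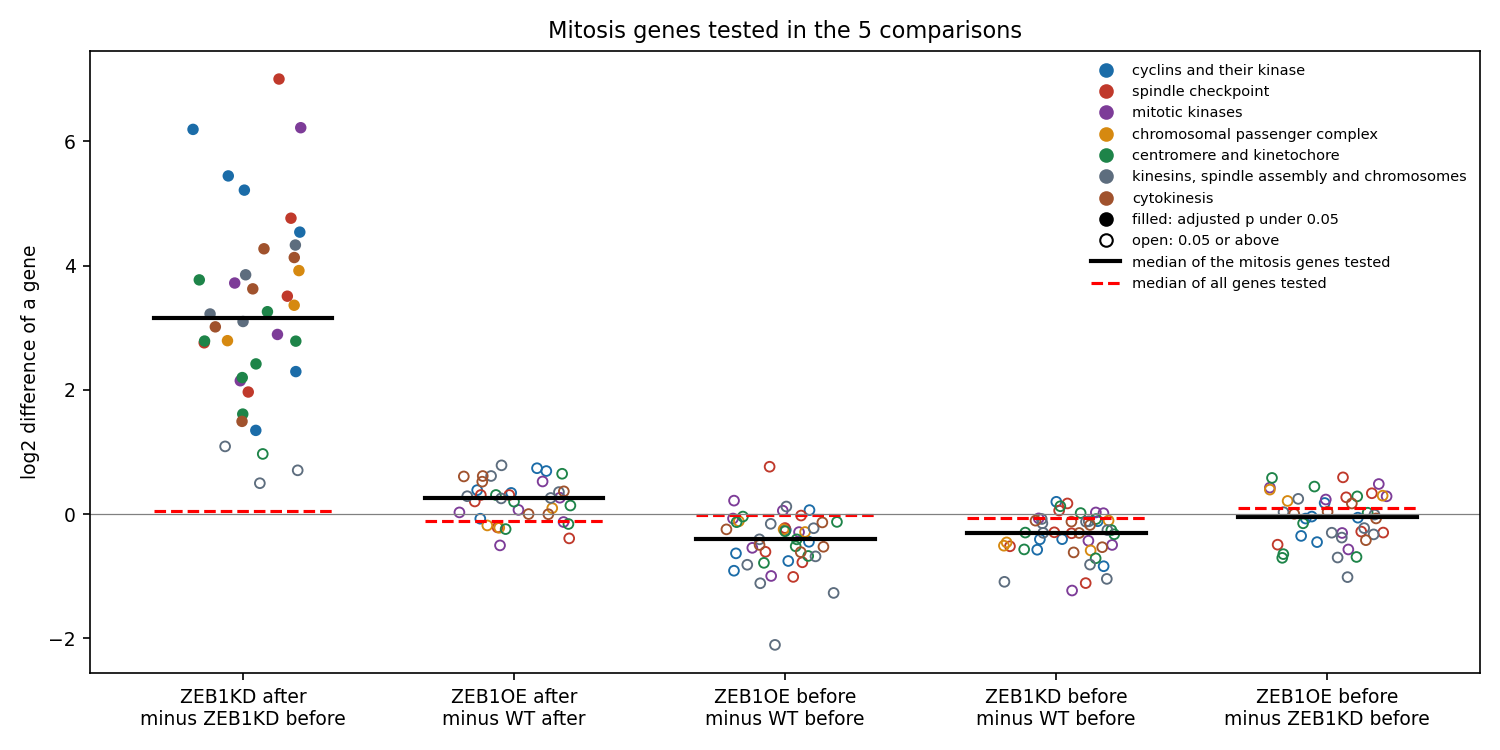
Log2 difference of each mitosis gene tested (points, coloured by role) in the 5 comparisons within a slide, with the median of these genes (black bars) and of all genes tested (dashed bars). Filled points passed an adjusted p of 0.05 and occur only in knock-down after against before tMCAO, whose median is 3.16. The other 4 medians are 0.26, -0.41, -0.30 and -0.04.

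Of the members, 28 were represented by the same probe on both slides, so their levels can be set side by side, although slide and group cannot be told apart and no test was made. Their median level was -0.65 and -0.69 in wild type after tMCAO, -0.60 and -0.49 under overexpression and -0.26 and -1.41 under knock-down. Before tMCAO it was -3.76 and -4.20 in wild type, -4.07 and -4.42 under overexpression and -4.20 and -4.39 under knock-down. All 6 arrays after tMCAO were above all 6 before it. The median of the 30629 shared probes lay between -2.46 and -2.38 on the 4-array slide and between -3.56 and -3.23 on the 8-array slide.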

How the data were processed

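Spot intensity on a linear scale was taken from the 12 scanner files as deposited. Per the file headers it came from Agilent Feature Extraction 11.5.1.1, after subtraction of background and spatial detrending, while the submitters' processing notes name version 9.1. Their spot marks are a unit of the kind other, deposited as yes or no values. The value tables the authors deposited hold log2 values with a 75th percentile near 0. The log2 scale and centring were found by setting each column against the scanner files. The 2 columns of knock-down after tMCAO each matched the other replicate's scanner file (correlation 0.975 with their own), and these tables served only as an alternative.

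Levels are log2 of the processed intensity less the array's own 75th percentile, and spots of a probe were averaged without marked spots. Accessions were matched to the RefSeq gene table without versions, which named 48.1% and 59.7% of the probes of the 2 designs. Probes needed a signal well above background in both arrays of some group on their slide. The test was two-sided, from lmFit and eBayes of limma 3.58.1 under R 4.3.3, fitted to all groups of a slide together, with Benjamini-Hochberg adjustment over all genes and a threshold of 0.05. The fit was tested on simulated data. A value left out was not imputed. The lists of members and related genes were chosen with earlier results of these data known. Within a role, up to 3 members past the threshold with the largest difference were given in full, and in the related lists up to 3 genes; any other member or gene was named after its values were seen. The summed level of a list adds linear levels, with the 75th percentile as 1. Alternatives were another background correction (normexp on median signals with an offset of 50), quantile normalization, marked spots kept, no filter, a mean over probes, the authors' tables, a replicate block, only the 2 groups in the fit, and leaving out each array. The number of arrays limits the precision. Replicate numbers were not treated as pairs, since the labels name no shared source. The differences between replicates correlated between groups compared at 0.05 to 0.17, which does not settle whether samples were paired. The level of 1 cell type marker and the stretch around the CHR of 1 member are not reported here.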

Additional observations from a re-analysis of the deposited data

Results flagged for a closer look

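In 6 members the difference between overexpression and wild type went one way in every array after tMCAO and the opposite way in every array before it. The difference between the times was not tested, since the times lie on different slides. Kif23, Top2a and Aurka were also read by a different probe on each slide, and Prc1, Ect2 and Bub1b by the same one. Among 24 members with all 8 values unmarked these 6 are 25%, against 15.1% of 5263 genes with a symbol.

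The mitotic motor Kif23 had a log2 difference of 0.52 after and -0.53 before tMCAO, Prc1 had 0.61 and -0.61, and Ect2 had 0.61 and -0.50. Top2a had 0.35 and -2.11, and Aurka had 0.26 and -0.29, of which the second became 0.073 with the normexp background. Bub1b ran the other way round, with -0.21 after and 0.76 before tMCAO. None of the 12 differences passed the threshold by itself (limma, smallest adjusted p 0.203 for Ect2 after tMCAO).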

How the results depend on the processing

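Each result was recomputed under 8 alternatives and without each array. Over the 8 alternatives, 102 values of the counts and medians stayed close to those reported and 15 moved. For single members 449 values kept their direction and call, 7 gained a call, 6 lost their call and 3 reversed. The fits without an array are left out of these totals, and further calls of single members were lost in them. In knock-down after against before tMCAO, 32 to 41 members rose over the 8 alternatives. The cause of the shifts below was not tested.

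With normexp the median member difference was 0.022 for overexpression after tMCAO, 2.48 for knock-down after against before, -0.11 for overexpression against wild type before tMCAO and 0.17 for overexpression against knock-down. Quantile normalization gave -0.22 for the last. The all-gene median of knock-down moved from 0.04 to 0.21 with normexp and to -0.10 with quantile normalization. Genes called for knock-down numbered 7391 with normexp, 2118 with no filter and 2310 with 2 groups in the fit. For overexpression after tMCAO they numbered 895 with marked spots kept, 328 with quantile normalization, 0 with no filter and 777 with the authors' tables. Quantile normalization called 6, 1 and 6 genes in the comparisons of overexpression with wild type, knock-down with wild type and overexpression with knock-down before tMCAO. Reversed were Aurka against wild type before tMCAO (0.073, normexp), and between overexpression and knock-down Sgo2a (0.17, normexp) and Sgo1 (0.66, mean over probes).

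A group left with 1 array was assumed to vary like the others of its slide. Leaving out 1 array gave 19 to 33 members called for knock-down, medians of 2.58 to 3.80 and 825 to 3789 genes. For overexpression after tMCAO the median was 0.17 to 0.29, with 39 to 1103 genes. Before tMCAO it was -0.44 to -0.25 (0 to 2 genes) and -0.48 to -0.24 (0 to 3 genes) against wild type, and -0.09 to 0.05 between the manipulated groups. In those 4 comparisons 0 members were called each time. With the replicate number as a block, 34 members rose for knock-down, with a median of 3.18 and 4686 genes called, 444 genes were called for overexpression after tMCAO, and no member's call changed.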
